A study of Gallus gallus with 8 samples.

Results

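Expression of 10 genes linked to bone morphogenetic protein (BMP) signalling was examined on 8 Affymetrix chicken arrays of samples labelled as hen F1 oocytes, collected 24 h before ovulation. The genes were the inhibitors of DNA binding ID1, ID2, ID3 and ID4, the signal transducers SMAD1 and SMAD5, the inhibitory SMAD6 and SMAD7, and the secreted proteins VWC2 and FSTL4. Members were found by their symbols in the array annotation: all 10 were on the array, out of 13009 named genes, with 19 of its 38535 probe sets. Of the 19 probe sets, 13 passed the filter, a log2 level of at least 4 on at least 2 arrays, and every gene kept at least 1. The gene's probe set with the highest mean over the 8 arrays is used below unless another is named.

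Each of 4 groups had 2 arrays. DPF+ and DPF- were hens of lines selected in opposite directions that differ in fertility. HG+ and HG- were hens of 1 line that differ in fertility. All hens were kept under 14 h of light and 10 h of dark, and neither their age nor the number of birds behind a sample is given in the sources used here. The arrays of a group are called biological replicates in the series' design text, with nothing on separate birds or pools, so the spread between them may be partly technical.

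VWC2 and ID3 had been noticed in earlier results of these arrays for their difference between DPF+ and DPF-, and the other genes were also chosen with the array values known, so the members count as chosen by the log2 levels described here. Levels and differences among the DPF groups, and between the DPF and HG arrays, are therefore given as descriptions, with no test. Only HG+ against HG- is tested for these 10 genes. The HG levels were among the known values, so this test is not independent of the choice. For FSTL4, under 4 on every HG array, it can show no difference.

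BMP ligands bind pairs of type I and type II serine/threonine kinase receptors, which phosphorylate SMAD1, SMAD5 and SMAD9. These join SMAD4 and enter the nucleus, where the ID genes are among their best known direct targets. ID proteins have a helix-loop-helix but no DNA-binding region, and they hold E proteins such as TCF3 and TCF12 off the DNA. SMAD6 mainly restrains the BMP branch and SMAD7 restrains the BMP and the TGF-beta and activin branches, and both are induced by the signals they dampen. In the bird ovary the F1 follicle is the largest yolk-filled follicle, the next to ovulate, and its granulosa cells carry BMP receptors.

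The samples did not look like oocytes alone. The filter was passed by 14 of 15 granulosa markers present and by 8 of 13 oocyte markers. DDX4, GDF9, BMP15, ZP1 and ZPAX of the oocyte list stayed under 4 on all arrays, and nothing is read from this about oocyte content. None of the 5 red blood cell markers passed (all were under 4 on all 8 arrays). Fewer cells of a type and less RNA per cell cannot be told apart in such samples. Replicates were further apart in the DPF groups than in the HG groups, with an SD of the replicate difference over all tested probe sets of 0.746 for DPF+, 0.456 for DPF-, 0.276 for HG+ and 0.282 for HG-. Of the 10 genes, 9 had a wider range over the 4 DPF arrays than over the 4 HG arrays, as did 86.8% of all 12725 tested probe sets. The log2 gap between 3' and 5' probe sets of control transcripts, a sign of RNA quality, was 1.82 and 1.86 for DPF+, 1.54 and 1.33 for DPF-, 1.15 and 1.17 for HG+, and 1.10 and 1.04 for HG-.

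**Figure D1:**
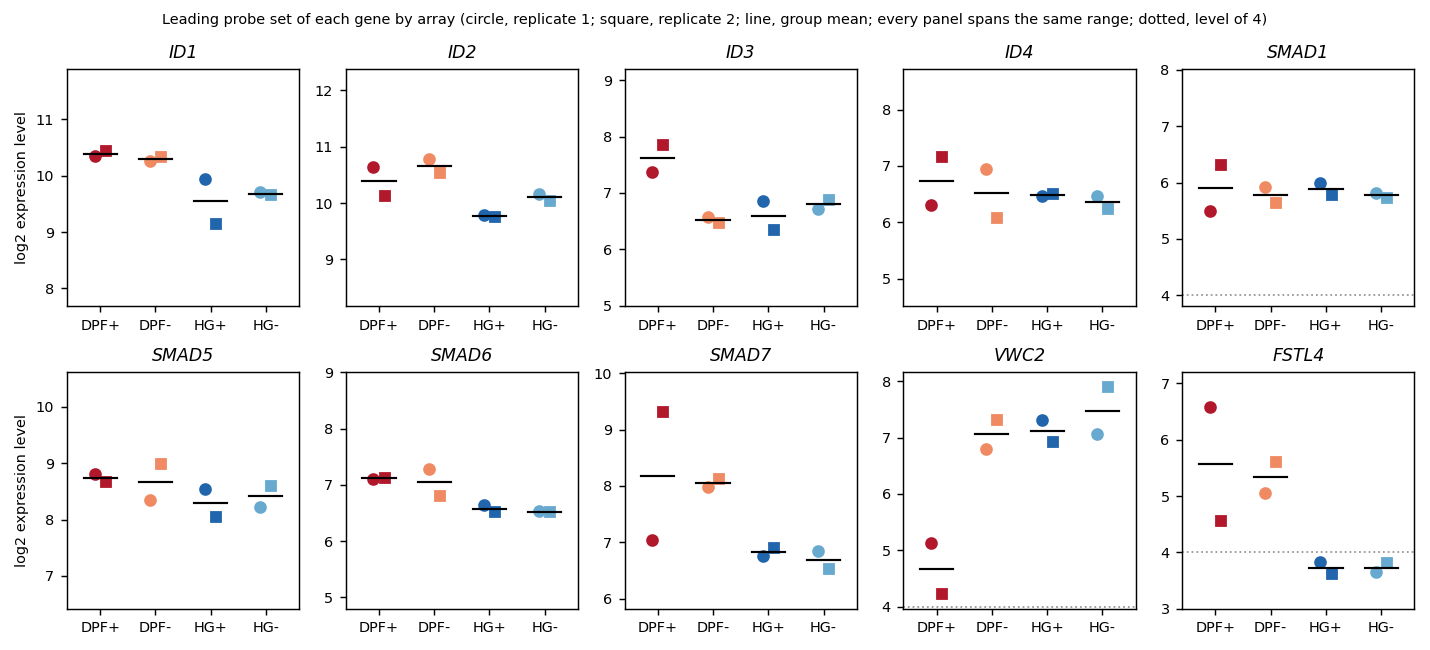
Log2 expression level (y axis, GCRMA values) of the 10 genes on the 8 arrays, by group (x axis). Circles are replicate 1, squares replicate 2 and lines group means, and every panel spans the same range. VWC2 is low on both DPF+ arrays (5.12 and 4.22) and FSTL4 is under 4 on all 4 HG arrays.

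Of the secreted proteins, VWC2 (also called brorin, a BMP antagonist with von Willebrand factor C domains described in the mouse) had log2 levels of 5.12 and 4.22 in DPF+ hens, against 6.80 and 7.31 in DPF- hens. The HG+ arrays had 7.31 and 6.92 and the HG- arrays 7.06 and 7.90. Both DPF+ arrays were thus below the other 6, which lay between 6.80 and 7.90. The means were 4.67 ± 0.64 for DPF+ hens, 7.06 ± 0.36 for DPF- hens, 7.12 ± 0.28 for HG+ hens and 7.48 ± 0.59 for HG- hens (SD, n = 2 each), and the last 3 did not differ beyond their spread. The log2 difference between DPF+ and DPF- was -2.39, or 5.22-fold, with values from -2.84 without DPF+ replicate 1 to -1.94 without DPF+ replicate 2. VWC2 has a single probe set here, of the kind whose probes can match several transcripts (suffix _s_at), so no other probe set of the gene can be set beside it.

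VWC2 and ID3 were both noticed for their difference between DPF+ and DPF-, so their opposite directions there are not a separate observation. ID3 ran opposite to VWC2 among the DPF arrays. Its log2 levels were 7.38 and 7.85 in DPF+ hens, against 6.58 and 6.47 in DPF- hens, 6.85 and 6.34 in HG+ hens and 6.72 and 6.87 in HG- hens. Both DPF+ arrays were above the other 6, and the order of the 4 DPF arrays for ID3 was the reverse of that for VWC2. Its means were 7.62 ± 0.33 for DPF+ hens, 6.53 ± 0.08 for DPF- hens, 6.60 ± 0.36 for HG+ hens and 6.80 ± 0.11 for HG- hens, and the HG+ arrays overlapped with both DPF- and HG-, while the HG- arrays lay above the DPF- arrays. DPF+ exceeded DPF- by 1.09 on the log2 scale, or 2.13-fold, with 0.86 when DPF+ replicate 2 was left out and 1.33 when DPF+ replicate 1 was.

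The 2 DPF+ arrays also had the largest 3' minus 5' difference of the 8, 1.82 and 1.86, against 1.54 or less on the others. Ordered by this measure, the 4 DPF arrays stood in the order of their ID3 levels and in the reverse order of their VWC2 levels. On the 6 other arrays, where the measure ran from 1.04 to 1.54, VWC2 spanned 6.80 to 7.90 and ID3 6.34 to 6.87. The part of RNA quality in the VWC2 and ID3 values was not tested.

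**Figure D2:**
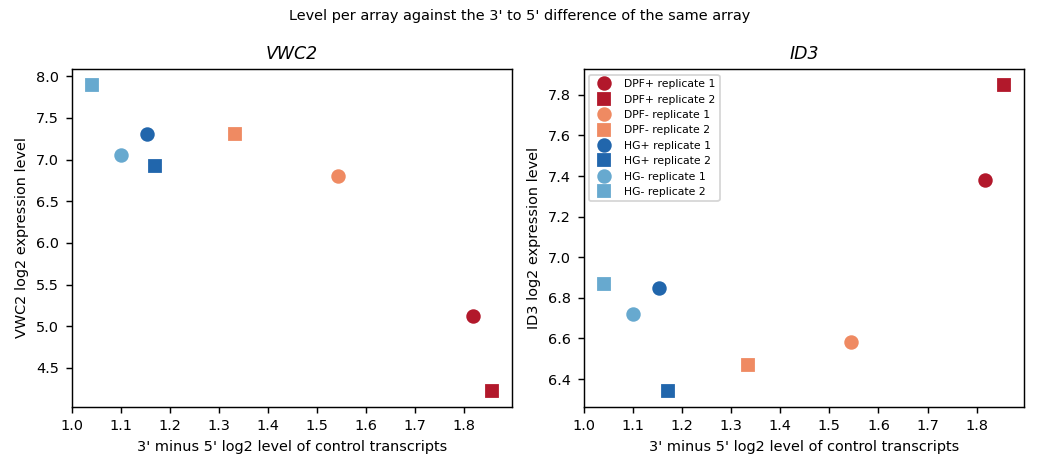
Log2 level of VWC2 (left) and ID3 (right) on each array (y axes) against the 3' minus 5' difference of control transcripts on the same array (x axes, log2). The DPF+ arrays stand apart on both axes, at 1.82 and 1.86 for the control transcripts.

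The other ID genes differed little between DPF+ and DPF-. ID1 had 10.35 and 10.44 in DPF+ hens, against 10.26 and 10.34 in DPF- hens (means 10.40 ± 0.06 and 10.30 ± 0.06, log2 difference 0.10). The DPF+ arrays lay just above the DPF- arrays, but the 4 values spanned only 0.18. ID2 had 10.64 and 10.13 in DPF+ hens, against 10.79 and 10.54 in DPF- hens (difference -0.28), and the groups overlapped. Its 2 other probe sets above the filter gave 0.26 and -0.10 for the same difference, so ID2 has no settled direction between DPF+ and DPF-. ID4 had 6.31 and 7.15 in DPF+ hens, against 6.95 and 6.08 in DPF- hens, with overlapping groups and a difference of 0.22 that ran from -0.22 without DPF- replicate 2 to 0.65 without DPF- replicate 1.

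Among the SMAD genes the DPF+ and DPF- arrays overlapped in every case. SMAD1 had 5.50 and 6.32 in DPF+ hens, against 5.92 and 5.63 in DPF- hens. SMAD5 had 8.81 and 8.66 in DPF+ hens, against 8.35 and 8.98 in DPF- hens. The log2 differences of SMAD1, SMAD5 and SMAD6 were 0.14, 0.07 and 0.07. SMAD6 had 7.11 and 7.12 in DPF+ hens, against 7.29 and 6.81 in DPF- hens.

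SMAD7 had the widest gap between replicates of all 10 genes, with 7.04 and 9.32 in DPF+ hens, against 7.99 and 8.12 in DPF- hens. The DPF+ arrays enclosed both DPF- arrays. Its difference of 0.13 became 1.27 when DPF+ replicate 1 was left out and -1.02 when DPF+ replicate 2 was. FSTL4, of the follistatin-like family of secreted proteins, had 6.59 and 4.55 in DPF+ hens, against 5.06 and 5.61 in DPF- hens, so it was split in the opposite sense to SMAD7. Its difference of 0.24 became -0.79 when DPF+ replicate 1 was left out and 1.26 when DPF+ replicate 2 was.

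Of the 10 genes, 3 (ID1, ID3 and VWC2) had no overlap between DPF+ and DPF- arrays, and 23.3% of all tested probe sets had none. Over all tested probe sets 0% passed an adjusted p of 5% in limma, with 781 at an unadjusted p under 0.05 and 1070 passing without DPF+ replicate 1. The median log2 difference was 0.11 for the 10 genes and 0.02 for all tested probe sets.

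**Figure D3:**
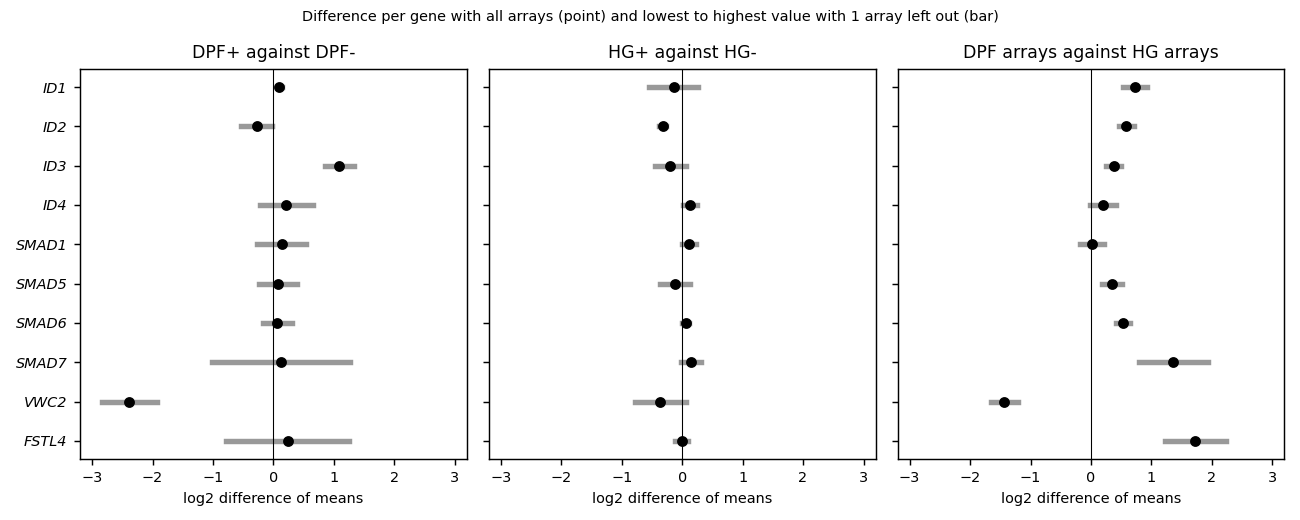
Log2 difference of group means for each gene (x axes) in DPF+ against DPF- (left), HG+ against HG- (middle) and the DPF arrays against the HG arrays (right). Points are the values with all arrays, and grey bars run from the lowest to the highest value with 1 array left out. The bar of SMAD7 in the left panel runs from -1.02 to 1.27, and those of ID1, ID2, ID3 and VWC2 stay on 1 side of 0. FSTL4 is drawn as fitted although its HG arrays were under 4.

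The contrast of HG+ with HG- asks about fertility inside 1 line, and here the 10 genes were close to level. ID2 had 9.79 and 9.76 in HG+ hens, against 10.16 and 10.04 in HG- hens, the only gene of the 10 without overlap (25.1% of all tested probe sets had none). Its log2 difference was -0.33 (SE 0.21, limma adjusted p = 1), and its second probe set gave -0.14, while another that passed the filter was under 4 on every HG array. ID1 had 9.95 and 9.14 in HG+ hens, against 9.71 and 9.66 in HG- hens, so the HG+ arrays enclosed the HG- arrays (difference -0.14).

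ID3 differed by -0.20 and VWC2 by -0.37 (SE 0.40), with overlap in both. ID4 had 6.46 and 6.51 in HG+ hens, against 6.47 and 6.24 in HG- hens (difference 0.13). SMAD1 had 6.0 and 5.77 in HG+ hens, against 5.82 and 5.72 in HG- hens (difference 0.12). SMAD5 had 8.54 and 8.05 in HG+ hens, against 8.22 and 8.60 in HG- hens (difference -0.12). SMAD6 was nearly constant, with 6.64 and 6.52 in HG+ hens, against 6.54 and 6.51 in HG- hens. SMAD7 had 6.75 and 6.90 in HG+ hens, against 6.84 and 6.52 in HG- hens (difference 0.15, SE 0.61). This SE is the same as for DPF+ against DPF- and also draws on the DPF arrays. The SDs of SMAD7 were 0.11 for HG+ and 0.23 for HG-. FSTL4 had 3.83 and 3.61 in HG+ hens, against 3.65 and 3.81 in HG- hens, under 4 on every array, so no fold is given.

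The adjusted p was 1 for each of the 10 genes, and 0 of them passed, as did 0% of all tested probe sets (45 at an unadjusted p under 0.05). FSTL4 passed the filter through the DPF arrays alone, so its outcome here was fixed in advance and carries no weight. The fit has a single spread per probe set for all 4 groups. These SE and p therefore carry the wider spread of the DPF arrays, and small differences between HG+ and HG- can be missed. With only the 4 HG arrays fitted, 0 of the 10 genes passed too. Of the 9 genes other than FSTL4, the sign turned for 6, all but ID2, ID4 and SMAD1, when 1 array was left out. The difference between the fertility contrasts, DPF+ minus DPF- less HG+ minus HG-, was 1.29 for ID3 and -2.02 for VWC2, and between -0.02 and 0.24 for the other genes apart from FSTL4, whose HG arrays were under 4. For each of these other genes it changed sign when 1 array was left out, from -1.16 to 1.12 for SMAD7, -0.35 to 0.52 for ID4 and -0.39 to 0.43 for SMAD1. Values near 0 therefore do not show that the 2 contrasts are alike for them. The difference between the contrasts contains the DPF values by which VWC2 and ID3 were noticed and is given without a test.

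Between the sources, 9 of the 10 genes had a higher mean on the DPF arrays than on the HG arrays, though for ID4 and SMAD1 the sign turned when 1 array was left out. Of all tested probe sets 41.5% had a higher mean on the DPF arrays. The genes were chosen with these values known, so nothing is read from their count. FSTL4 lay between 4.55 and 6.59 on the 4 DPF arrays, against 3.61 to 3.83 on the 4 HG arrays. With the HG mean counted from 4, which is taken here as the limit of measurement, the DPF mean was at least 2.74-fold higher. The second probe set of FSTL4 that passed the filter followed the first, with 6.12 and 3.69 in DPF+ hens, 4.94 and 4.94 in DPF- hens, 3.40 and 2.83 in HG+ hens and 3.61 and 3.50 in HG- hens. Both placed DPF+ replicate 1 highest and DPF+ replicate 2 lowest among the DPF arrays, and the first placed the HG arrays lowest of all. In the second, DPF+ replicate 2 (3.69) was under 4 like the HG arrays, so their order cannot be read. With its HG mean counted from 4, the DPF mean of the second was at least 1.90-fold higher. The remaining 2 probe sets of FSTL4 were under 4 on all arrays.

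**Figure D4:**
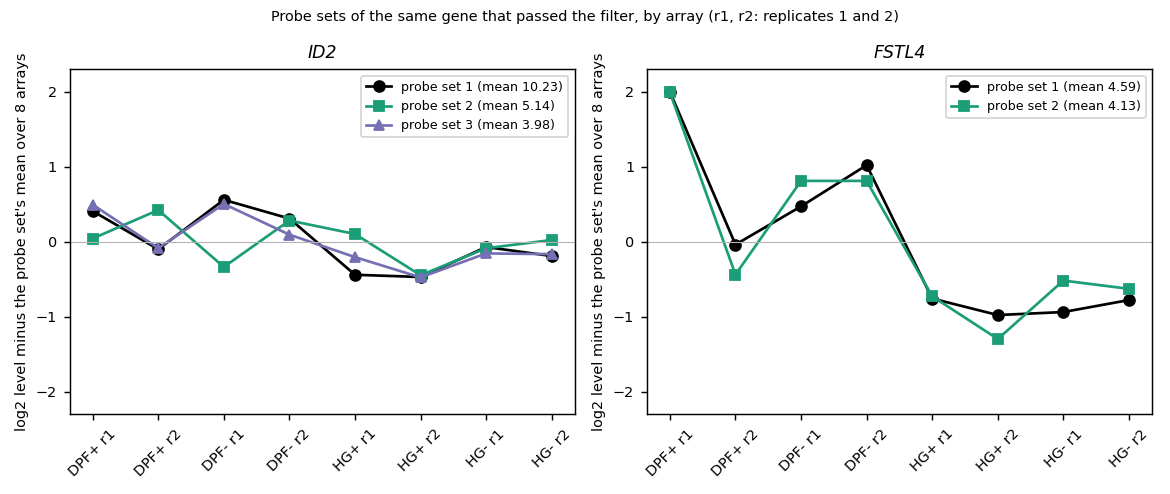
Log2 level minus the probe set's own mean over the 8 arrays (y axis) for the probe sets of ID2 (left, 3 probe sets) and FSTL4 (right, 2 probe sets) that passed the filter, by array (x axis). The lines of FSTL4 run together, and those of ID2 part on the DPF arrays.

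The inhibitory SMADs were both higher on every DPF array than on every HG array. SMAD7 lay between 7.04 and 9.32 on the DPF arrays, against 6.52 to 6.90 on the HG arrays, a log2 difference of 1.37 or 2.58-fold (means 8.12 ± 0.94 and 6.75 ± 0.17, SD, n = 4 each). Leaving out DPF+ replicate 2 gave 0.80, and leaving out DPF+ replicate 1 gave 1.94. The other 2 probe sets of SMAD7 did not pass the filter. SMAD6 lay between 6.81 and 7.29 on the DPF arrays, against 6.51 to 6.64 on the HG arrays, a difference of 0.53 or 1.44-fold (means 7.08 ± 0.20 and 6.55 ± 0.06).

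ID1 also separated the sources without overlap, with 10.26 to 10.44 on the DPF arrays, against 9.14 to 9.95 on the HG arrays (difference 0.73, 1.66-fold). Here the HG arrays were the more variable ones, with a range of 0.81 against 0.18, because HG+ replicate 2 stood at 9.14. ID2 had 10.13 to 10.79 on the DPF arrays, against 9.76 to 10.16 on the HG arrays (difference 0.59), and DPF+ replicate 2 fell within the HG range. Its second probe set had a difference of 0.21, and another, under 4 on all HG arrays, of at least 0.23 with the HG mean counted from 4. ID3 differed by 0.38 through the DPF+ arrays alone, since DPF- averaged 6.53 ± 0.08 and the HG arrays 6.70 ± 0.25.

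ID4 differed by 0.20 and SMAD5 by 0.35, with overlap, and SMAD1 by 0.02. VWC2 was the 1 gene with a lower mean on the DPF arrays, by -1.44 on the log2 scale, and this came mostly from DPF+. The DPF- mean (7.06 ± 0.36) was within the range of the HG arrays, 6.92 to 7.90, although DPF- replicate 1 (6.80) was just below it.

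Over all tested probe sets 12.5% passed an adjusted p of 5% in this comparison, 443 higher and 1145 lower on the DPF arrays (550 and 838 after quantile normalization). No overlap of DPF and HG arrays was found for 4 of the 10 (ID1, SMAD6, SMAD7 and FSTL4) and for 24.8% of all tested probe sets, and since the genes were chosen with these values known nothing is read from that share. The median difference was 0.45 for the 10 genes and -0.08 for all tested probe sets. Hen source and any difference in when or how the 2 sets of arrays were run cannot be told apart. The 3' minus 5' difference averaged 1.64 ± 0.25 over DPF arrays and 1.12 ± 0.06 over HG arrays, and its part here was not tested.

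Summed levels of 2 of the marker lists, theca, stroma and smooth muscle and endothelium, did not overlap between the sources, while those of the other lists did. In these 2 lists 10 of 13 and 6 of 9 markers were under 4 on all arrays, so the sums rest on few genes. The summed level of the 13 theca, stroma and smooth muscle markers on the array (log2 of the sum) was 7.03 to 7.49 for DPF+, 6.95 to 7.05 for DPF-, 9.20 to 9.23 for HG+ and 8.59 to 8.96 for HG-, although only 3 of them passed the filter and COL1A1 and COL3A1 did not. Those 3 did not move together: COL1A2 averaged 4.81 with DPF and 8.58 with HG and MYLK 4.27 with DPF and 5.48 with HG, but PDGFRB averaged 4.48 with DPF and 3.90, under the limit, with HG. That of the 9 endothelial markers, of which 2 passed, was 7.88 to 8.19 with DPF and 8.23 to 8.46 with HG. The 11 leukocyte markers, of which only CD74 passed, had 7.99 to 8.99 with DPF and 8.88 to 9.37 with HG, and the granulosa markers 14.61 to 15.16 with DPF and 14.89 to 15.07 with HG. The oocyte markers had 8.51 to 9.37 with DPF and 8.85 to 9.08 with HG, and 5 red blood cell markers 4.70 to 4.77 with DPF and 4.69 to 4.72 with HG. The part of these cells in the differences between the sources was not tested.

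Within the DPF arrays several of the genes followed neither line, but a crossed split that was picked after seeing the data. This split is not particular to them. Over all tested probe sets the replicate deviations of DPF+ and DPF- correlated at -0.52. ID4 and SMAD1 were higher on DPF+ replicate 2 and DPF- replicate 1 (7.15 and 6.95 for ID4, 6.32 and 5.92 for SMAD1) than on DPF+ replicate 1 and DPF- replicate 2 (6.31 and 6.08, 5.50 and 5.63). SMAD5 and FSTL4 ran the other way, with 8.66 and 8.35 for SMAD5 and 4.55 and 5.06 for FSTL4 on the first pair of arrays, against 8.81 and 8.98, and 6.59 and 5.61, on the second. The mean log2 level of the granulosa markers was 8.69 and 8.94 on the first pair and 9.23 and 9.26 on the second. That of the oocyte markers was 4.58 and 4.35, against 4.15 and 4.03. The part of cell makeup in these values was not tested. Among the 10 genes ID4 and SMAD1 were also the most alike pair over the 8 arrays, with a root mean square difference of 0.19 between their mean-centred log2 levels, followed by ID2 with SMAD6 (0.23) and ID1 with SMAD6 (0.25). SMAD7 and VWC2 were the least alike (1.88), but this measure grows with the range of the genes, here 2.80 and 3.68. By correlation over the 8 arrays ID3 and VWC2, both noticed for DPF+ against DPF-, were the most opposed (-0.84). SMAD6 with VWC2 (-0.66) and SMAD7 with VWC2 (-0.65) came next. ID2 with SMAD6 and ID1 with SMAD6 correlated at 0.76 and 0.81 over the 8 arrays, but at 0.23 and -0.29 over the DPF arrays.

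The genes nearest to each member over the 8 arrays were ranked by the same root mean square difference, among the tested probe sets with 1 gene, 10601 in the case of VWC2. The ranking covers the 7 members whose range was at least 1. Nearest to VWC2 were FGL2, a fibrinogen-like protein (0.42), NRG1, the growth factor neuregulin (0.47), and TAB3, an adaptor of the kinase MAP3K7 (0.55). FGL2 had 7.25 and 6.32 in DPF+ hens, against 8.38 and 9.61 in DPF- hens, 10.35 and 9.71 in HG+ hens and 9.49 and 10.00 in HG- hens. Its DPF+ arrays were the lowest, as for VWC2. Such a likeness follows from the ranking and is not a separate observation.

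Nearest to ID3 were RBM8A of the exon junction complex (0.15), BROX (0.19) and POLA2, part of the DNA polymerase alpha complex (0.19). RBM8A had 4.62 and 4.87 in DPF+ hens and between 3.72 and 4.02 on the other 6 arrays, near the limit of measurement. On those 6 arrays BROX (3.62 to 3.99) and POLA2 (3.29 to 3.78) were under 4, so both passed the filter through the DPF+ arrays alone. Nothing can be read from their likeness to ID3 on the 6 arrays. Nearest to FSTL4 were P2RY6, a receptor for extracellular nucleotides (0.27), FMOD, the matrix proteoglycan fibromodulin (0.28), and SELENOP1, a secreted selenoprotein (0.29). FMOD had 7.77 and 6.59 in DPF+ hens, 6.39 and 7.02 in DPF- hens, 5.48 and 5.42 in HG+ hens and 5.59 and 5.42 in HG- hens. Its DPF+ replicate 1 was highest and the HG arrays were lowest, which the ranking by likeness to FSTL4 selects. The lowest DPF array was DPF- replicate 1 (6.39) for FMOD but DPF+ replicate 2 (4.55) for FSTL4.

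Nearest to SMAD7 were WDR12, a ribosome assembly factor (0.24), TRIM63, a ubiquitin ligase known from muscle (0.36), and PRAG1 (0.39). WDR12 had 4.83 and 6.94 in DPF+ hens, 6.32 and 6.27 in DPF- hens and between 4.79 and 5.14 on the HG arrays. Nearest to ID4 were TBL3 (0.07), MAT1A (0.09) and ZFYVE19 (0.09), nearest to ID1 were R3HCC1L (0.16), GLB1L2 (0.17) and NCBP3 (0.17), and nearest to ID2 were CA10 (0.11), CD2AP (0.12) and TLN2 (0.13).

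The other genes of the pathway were taken from lists by role. These lists were drawn up with earlier results of these data known, so the tests below are not independent of the data. Of 111 such genes on the array 55 passed the filter. Between DPF+ and DPF- 0 of the 55 were called (3 without DPF+ replicate 1), between HG+ and HG- 0 were, and between the DPF and HG arrays 1 was called as higher (3.48% of all tested probe sets were) and 1 as lower (9% were), that is 3.64% against 12.5% of all tested probe sets. The 2 calls became 21 without DPF+ replicate 2 and 9 without DPF+ replicate 1, and 1 without any one HG array or without the filter. The higher one was HEY1, a transcriptional repressor induced by Notch and BMP signals. It had 6.87 and 6.69 in DPF+ hens, 7.03 and 6.69 in DPF- hens, 5.91 and 6.10 in HG+ hens and 6.18 and 6.11 in HG- hens, so every DPF array was above every HG array. Its log2 difference between sources was 0.75 (SE 0.15, limma adjusted p = 0.0213). The call of HEY1 was lost without DPF- replicate 1 (adjusted p = 0.0579), HG+ replicate 1 (0.106), HG+ replicate 2 (0.0927), HG- replicate 1 (0.0884) or HG- replicate 2 (0.106), and without the filter (0.0503).

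The gene called as lower was COL1A2, a chain of type I collagen that TGF-beta signals induce, which also stands in the stroma list. It had 5.97 and 4.68 in DPF+ hens, 4.50 and 4.08 in DPF- hens, 8.93 and 8.87 in HG+ hens and 8.01 and 8.51 in HG- hens (log2 difference -3.77, SE 0.29, limma adjusted p = 0.00133). Its 2 other probe sets above the filter were also lower, with differences of -2.65 for the first and -0.69 for the second with its DPF mean, under 4, counted from 4, and the remaining 5 did not pass the filter.

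**Figure D5:**
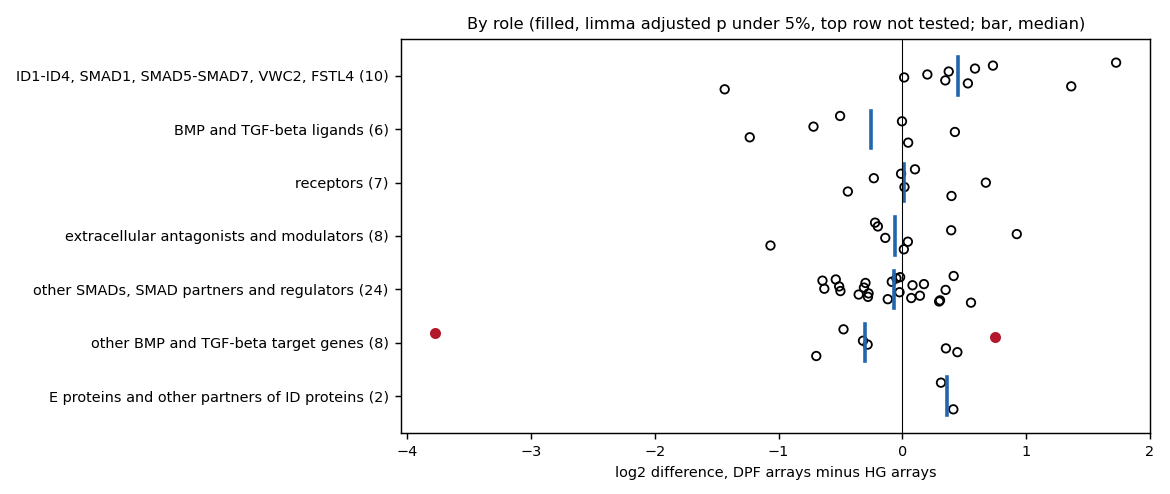
Log2 difference between the DPF and HG arrays (x axis) for each gene above the filter, by role (y axis, number of genes in brackets). Filled points have a limma adjusted p under 5%, bars are list medians, and all differences are those of the fit, with no floor. The 10 genes of the top row are shown without a test, and HEY1 and COL1A2 are the filled points.

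Of 21 ligands on the array 6 passed the filter, and 0 were called. INHBA, the activin A subunit, differed by -1.23 between sources (limma adjusted p = 0.0757), as did its second probe set (-1.40) (for the first, -0.77 when DPF+ replicate 2 was left out, and past the threshold, and -1.70 when DPF+ replicate 1 was, also past it). AMH, anti-Müllerian hormone, differed by -0.50 (adjusted p = 0.102), but its second probe set above the filter by 0.12. Between DPF+ and DPF-, INHBA (-0.65, limma adjusted p = 0.930) and BMP6 (adjusted p = 0.930) had the smallest p. BMP6 averaged 4.15 in DPF+ hens (3.61 and 4.69) and 3.6, under the limit, in DPF- hens (4.10 and 3.10), with overlap. With the DPF- mean counted from 4 the difference was 0.15. It rests on DPF+ replicate 2, without which the fitted difference of BMP6 was 0.01. Leaving out DPF+ replicate 2 gave 0.28 for INHBA, and leaving out DPF+ replicate 1 gave -1.58. With all arrays the second probe set of INHBA gave -1.145 between DPF+ and DPF-.

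Of 14 receptor genes 7 passed and 0 were called. BMPR1B, a type I BMP receptor, differed by 0.68 between sources (limma adjusted p = 0.104), and TGFBR1, a type I TGF-beta receptor, by 0.40 (adjusted p = 0.143). Between DPF+ and DPF- the smallest p were those of RGMB, a BMP co-receptor (-0.54, limma adjusted p = 0.908), and the activin receptor ACVR2A (0.20, adjusted p = 0.938). Leaving out DPF+ replicate 2 brought both to -0.05, and leaving out DPF+ replicate 1 gave -1.03 for RGMB and 0.45 for ACVR2A.

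Of 17 extracellular antagonists and modulators other than VWC2 and FSTL4, 8 passed and 0 were called. TLL1, a metalloprotease that cleaves the antagonist chordin, differed by -1.07 between sources (limma adjusted p = 0.0677). GREM1, a BMP antagonist, had both source means under 4, so no difference is given. The limma adjusted p of its fitted values (0.0922) is not read for that reason. The antagonists with the smallest p between DPF+ and DPF- were CHRDL1 (-0.44) and FST, follistatin (0.51), each with an adjusted p of over 5% in limma (0.822 and 0.872). A second probe set of FST above the filter gave 0.1.

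Among 29 other SMADs, partners and regulators 24 passed and 0 were called. PPM1A, a phosphatase of SMADs, had a DPF mean under 4 and differed by -0.52 between sources with that mean counted from 4. Its fitted difference, with no floor, was -0.645 (limma adjusted p = 0.0647). TAB1, an activator of MAP3K7, differed by -0.50 (adjusted p = 0.0721). Between DPF+ and DPF- the smallest p were those of MAP3K7 (0.40) and SMAD9, the third BMP-specific SMAD (-0.48), with limma adjusted p of 0.855 and 0.882. Further probe sets of MAP3K7 above the filter gave -0.3 and 0.12 for this difference, and another had both means under 4. Of 13 E proteins and other partners on the array only TCF3 and TCF12 passed. Between DPF+ and DPF- TCF3 differed by -0.43 and TCF12 by -0.10 (limma adjusted p of 0.882 and 0.960). Here a second probe set of TCF3 gave -0.45. Further ones of TCF12 gave -0.41 and, with a DPF+ mean under 4 counted from 4, -0.235. TCF3 differed by 0.41 and TCF12 by 0.31 between sources, with limma adjusted p of 0.162 and 0.175. However, a second probe set of TCF3 above the filter had a difference of 0, and 2 further probe sets of TCF12 had -0.34 and -0.48. Of 17 other BMP and TGF-beta targets 8 passed, and apart from HEY1 and COL1A2 none was called between sources. The smallest p between DPF+ and DPF- in that list were those of CCN2 (-0.46) and COL1A2 (1.04, with 0.39 when DPF+ replicate 1 was left out and 1.68 when DPF+ replicate 2 was), each with a limma adjusted p of 0.788.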

How the data were processed

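The deposited table holds 1 log2 level for each probe set and array, and per the submitters' processing notes the authors used GCRMA, which corrects for background, normalizes arrays against each other and sums up the probes. Its version and whether the 8 arrays were processed in 1 run are not given in the sources used here. Of 38535 probe sets, 96 controls and 8 with a blank value (6 blank on the 4 DPF arrays, 2 on the 4 HG arrays) were left out, and 12725 passed the filter of a log2 level of at least 4 on at least 2 arrays. Gene names came from the platform annotation, updated by gene identifier through the chicken table of assembly GCF_016699485.2. On the array 27178 probe sets had 1 gene, 177 several and 11180 none, and genes were named from the first kind only.

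The 4 group means were fitted with limma 3.58.1 in R 4.3.3 (lmFit, eBayes with an intensity trend, two-sided, 4 residual degrees of freedom), with Benjamini-Hochberg adjustment over all 12725 probe sets. The fit was tested on simulated data. The number of arrays limits the precision. Groups share replicate numbers with no stated meaning, and the deviations of same-numbered arrays did not go together in every pair of groups, so no block was used. The genes and lists were chosen with earlier results of these data known. The named genes were, per list, every called gene or, where none was called, up to 2 of smallest p, and for each of the 10 genes with a range of at least 1 its 3 nearest genes. Sequences were not analysed here.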

Additional observations from a re-analysis of the deposited data

Results flagged for a closer look

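None of the 10 genes had an outlying array among the 4 DPF or the 4 HG arrays by Dixon's test at 95%. Over these 10 genes and the 20 named genes of the other lists, 60 sets of 4 arrays were examined and 5 arrays stood apart, where chance gives about 1 in 20 sets. AMH was at 7.12 on DPF- replicate 1 and at 6.91 on HG+ replicate 1. ACVR2A was at 8.47 and TCF12 at 8.60 on DPF+ replicate 2, and GREM1 at 2.55 on HG+ replicate 2, under the limit of measurement. CCN2, a matricellular growth factor, had 10.41 and 10.06 in DPF+ hens, against 10.62 and 10.77 in DPF- hens, but 11.17 and 11 in HG+ hens, against 10.83 and 10.76 in HG- hens, so its arrays moved in opposite directions in the DPF and HG comparisons. The difference between the contrasts was -0.75 (limma adjusted p = 0.999).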

How the results depend on the processing

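The number of probe sets called between DPF+ and DPF- was 0 as reported, 10 without the filter, and 0 to 1070 with 1 array left out (1070 without DPF+ replicate 1, 2 without DPF+ replicate 2). Between HG+ and HG- it was 0, and 1 without the filter. For the difference between the contrasts it was 0, and 1 without the filter. Between the DPF and HG arrays it was 1588 as reported, 1045 without the filter, 549 with the filter at 6, and 174 to 4846 with 1 array left out (174 without HG- replicate 2, 4846 without DPF+ replicate 2). With the replicate number as a block it was 870, with 0 in each of the other comparisons. Replicate deviations correlated at -0.52 between DPF+ and DPF- and at -0.19 between HG+ and HG-, and a crossed pairing within each source, added after seeing the data, gave 5 calls between DPF+ and DPF-, 0 between HG+ and HG-, 0 for the difference and 3339 between the sources. Why these counts move was not tested.

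With 1 array left out the HG+ minus HG- differences ran from -0.55 to 0.27 for ID1, -0.455 to 0.055 for ID3, -0.36 to 0.13 for SMAD5, -0.005 to 0.12 for SMAD6, -0.015 to 0.31 for SMAD7 and -0.785 to 0.055 for VWC2. FSTL4, under 4 on all HG arrays, ran from -0.12 to 0.10, with 0.019 under quantile normalization, and no sign is read from these values. Between DPF+ and DPF- they ran from -1.58 to 0.28 for INHBA and -0.045 to 0.445 for ACVR2A. Between the sources, leaving out 1 array gave -0.015 to 0.42 for ID4 and -0.19 to 0.22 for SMAD1, and no other of the 10 differences changed sign under the settings tried. Of the 3 nearest genes, quantile normalization kept 0 for ID2, 1 for ID1, 2 for ID3 and 3 each for SMAD7, VWC2 and FSTL4. Levels near 4 limit what can be read from FSTL4 in HG hens.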
